A study of Mus musculus with 17 samples.

Results

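The endoplasmic reticulum (ER) folding and protein entry machinery was followed through 36 genes, out of the 43430 gene IDs in the deposited count tables, in sorted alveolar epithelial type 2 (AT2) cells of mouse lung. Members were picked by symbol for what their products do, with earlier results of these data known, and all 36 matched an ID. They comprise 12 chaperones and co-chaperones, 10 disulfide isomerases and other folding enzymes, 7 translocon genes, 3 signal peptidase genes and 4 oligosaccharyltransferase genes.

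All 17 libraries came from C57BL/6J mice labelled as 2 months old, without genetic modification in the labels. A set of 8 poly(A)-selected libraries compared ISRIB with vehicle in naive mice, 24 h after dosing (4 libraries each). ISRIB is a small molecule that binds the translation factor eIF2B and relieves the translational block of the integrated stress response. A second set of 9 total-RNA libraries compared mice 14 days after bleomycin (5 libraries) with naive mice (4 libraries). Bleomycin damages the alveolar epithelium, and fibrosis of the lung follows. The labels give both groups of this second set, and the vehicle group of the first, the treatment vehicle and a title with the word saline. The labels used here state no dose or route for either drug, and do not state that each replicate is a separate mouse, so p-values measure the spread between these libraries. The sets differ in kit and input RNA, and no model or level was set across them.

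Secreted and membrane proteins enter the ER through the Sec61 channel while they are being made, the signal peptidase removes their signal peptide, and the oligosaccharyltransferase attaches N-glycans. Inside the ER, Hspa5 (BiP), the lectin chaperones and the disulfide isomerases fold the new chain. When unfolded protein builds up, the unfolded protein response raises many of these genes through the factors XBP1 and ATF6, which act on promoter elements such as the ER stress response element (ERSE). AT2 cells are secretory cells that pass large amounts of surfactant protein through this route.

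Promoters are shown first, because the best described control of these genes acts there. RefSeq promoters (GRCm38.p6, 250 bases before to 50 after the start) were at hand for 28 of the 36 members. The ERSE was searched as CCAAT, then 9 bases of any kind, then CCACG, and the related ERSE-II as ATTGG, then 1 base of any kind, then CCACG. Both strands were read, and the motifs share CCACG but do not contain each other. An ERSE stood in 7 of the 28 members (25.0%) and in 37 of all 27025 genes with a promoter entry (0.137%). Many members are known targets of the response that acts on this element, so the gap between these shares is no independent finding. An ERSE-II stood in 1 member, Dnajb11 (3.57%), and in 12 of all genes (0.0444%). The 7 members with an ERSE were Hspa5, Hsp90b1, Calr, Canx, Dnajc3, Creld2 and Pdia6, and Hsp90b1 held 2. No member of the translocon, signal peptidase or oligosaccharyltransferase groups with a promoter entry had either motif, which says only that these letters are not in these windows. The short CCACG part alone was in 22 of the 28 members against 35.5% of all genes, and CCAAT alone in 20 against 41.1%.

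The whole stretch of 250 bases before the start of Hspa5 (chr2:34771840-34772089, + strand, GRCm38.p6) is given to show the element in its setting, with the ERSE in capitals; 4 CCAAT boxes lie in it, counting both strands and the one inside the ERSE. The other lines give each remaining match with up to 20 bases on either side, on the strand of the gene and with the motif in capitals, to show how far the 9 middle bases vary. Positions count from the first base of the RefSeq transcript. The Hspa5 match runs from -65 to -47. Hsp90b1 matches lie at chr10:86705618-86705676 (- strand, -212 to -194) and chr10:86705513-86705571 (-107 to -89). The Calr window is chr8:84847055-84847113 (- strand, -162 to -144) and the Canx window chr11:50325780-50325838 (- strand, -145 to -127). The Dnajc3 window is chr14:118937807-118937865 (+ strand, -105 to -87), that of Creld2 is chr15:88819500-88819558 (+ strand, -126 to -108) and that of Pdia6 is chr12:17266471-17266529 (+ strand, -98 to -80). The ERSE-II of Dnajb11 lies just inside the transcript, in chr16:22857832-22857872 (+ strand, 7 to 17). The match reads on the opposite strand (CGTGG first) in the second Hsp90b1 line, in Calr and in Creld2.
Hspa5: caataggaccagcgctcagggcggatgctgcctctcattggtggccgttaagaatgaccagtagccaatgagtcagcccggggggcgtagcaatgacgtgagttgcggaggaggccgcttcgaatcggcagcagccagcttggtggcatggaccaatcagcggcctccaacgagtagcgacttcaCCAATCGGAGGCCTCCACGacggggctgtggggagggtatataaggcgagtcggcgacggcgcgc
Hsp90b1, first match: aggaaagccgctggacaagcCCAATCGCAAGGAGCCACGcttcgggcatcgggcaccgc
Hsp90b1, second match: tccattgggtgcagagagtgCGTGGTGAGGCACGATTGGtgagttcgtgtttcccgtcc
Calr: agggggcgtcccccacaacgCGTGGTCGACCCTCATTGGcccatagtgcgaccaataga
Canx: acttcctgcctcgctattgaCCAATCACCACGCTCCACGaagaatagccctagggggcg
Dnajc3: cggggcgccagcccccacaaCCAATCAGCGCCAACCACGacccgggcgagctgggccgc
Creld2: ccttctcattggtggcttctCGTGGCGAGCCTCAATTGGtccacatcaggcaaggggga
Pdia6: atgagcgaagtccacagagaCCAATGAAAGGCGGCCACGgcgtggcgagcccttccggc
Dnajb11: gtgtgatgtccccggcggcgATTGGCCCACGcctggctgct

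Total counts ran from 10493574 to 15727139 per poly(A) library and from 3295257 to 6333166 per total-RNA library. The filter on low counts left 12054 genes for ISRIB against vehicle and 11223 for bleomycin against naive, with a common biological coefficient of variation between replicates of 7.66% and 21.1%. Of the 12 AT2 markers, all 12 were detected and tested in both sets, and their summed level was 226633 to 230426 CPM (counts scaled to a library total of 10 to the power 6) with poly(A) selection, 94255 to 98530 CPM in naive and 55251 to 107482 CPM in bleomycin libraries. Levels of members are CPM after scaling, log2 fold changes and adjusted p-values come from the quasi-likelihood test of edgeR, and called means an adjusted p under 0.05. In bulk libraries such as these, fewer cells of a type and less RNA per cell cannot be told apart.

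The first comparison asks what 24 h of ISRIB did in AT2 cells of uninjured mice. Many of its genes were lower in the ISRIB libraries by a small amount: 16 of the 36 members were called lower and 0 higher, against 1.1% of all genes tested called lower and 1.1% called higher. The log2 fold change was below 0 for 33 of 36 members. Their median was -0.21, a level 13.8% lower, while the median over all genes tested was -0.000137. The 4 vehicle and 4 ISRIB libraries did not overlap for 23 members, against 4.39% of all genes tested, and these 23 include all 16 called members. High-level genes are called more readily, so the same count was taken at a mean of at least 40 CPM, where 15 of 32 members were called lower against 2.17% of genes at that level. No member was called higher by edgeR, DESeq2 or limma-voom, and 0 had an unadjusted p under 0.05 in that direction.

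The count of calls rests on all 8 libraries together. It was 4 without vehicle 1, 8 without vehicle 2 or without ISRIB 3, 9 without vehicle 4 or without ISRIB 2, and 10 without ISRIB 1. Without ISRIB 4 or without vehicle 3 the count was higher than in those fits, and still below the count with all 8 libraries. Over all genes, too, fewer were called lower in each of these fits than with all 8 libraries. The median of the members stayed between -0.24 and -0.19 in these fits. The 4 members called in every fit with a library left out were Calr, Hsp90b1, Hyou1 and Pdia6.

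**Figure D1:**
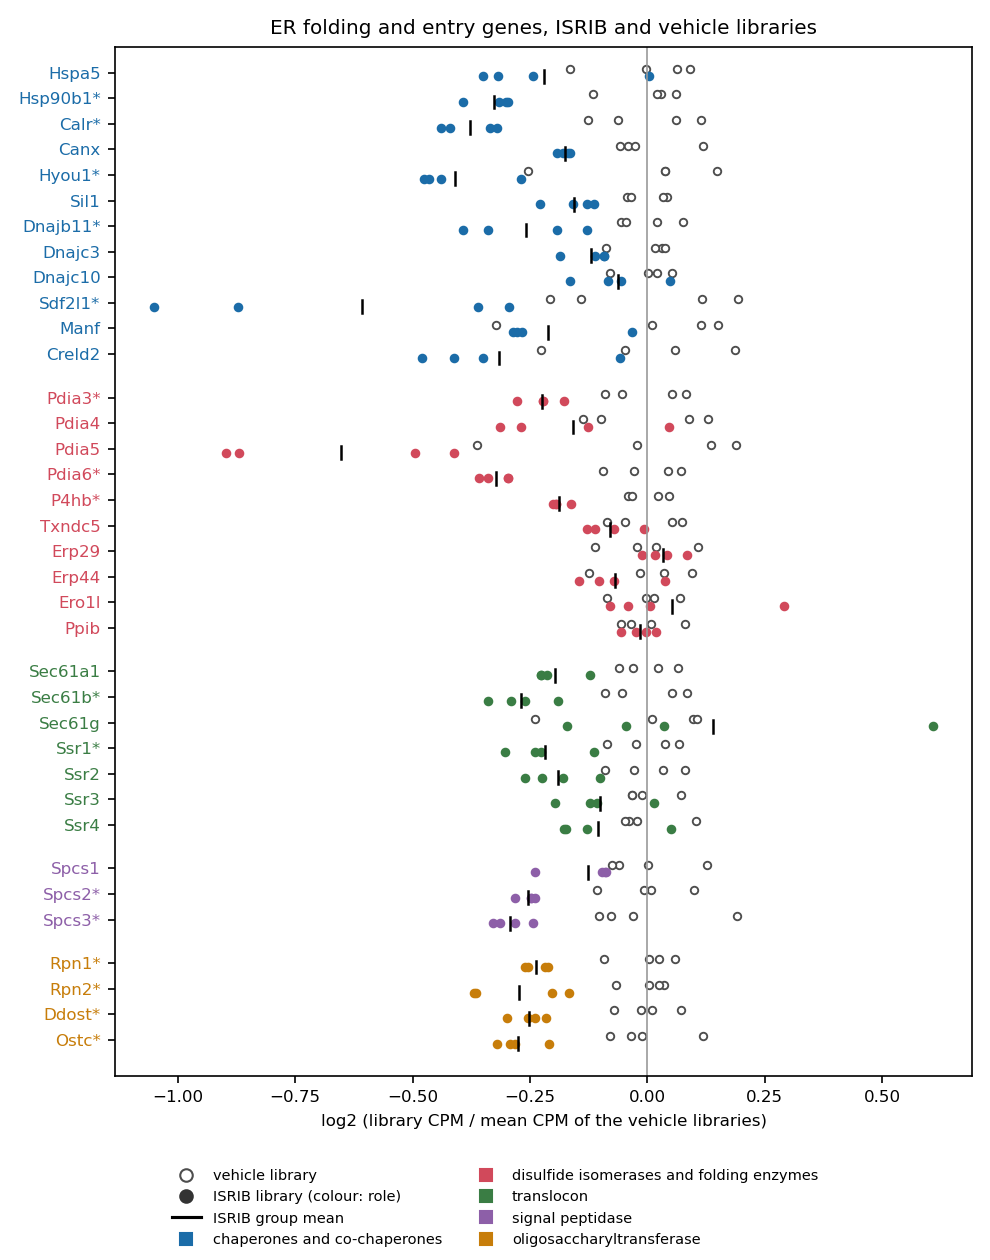
Level of each of the 36 members in each poly(A) library, as the log2 ratio of the library's CPM to the mean CPM of the 4 vehicle libraries. Open circles are vehicle libraries, filled circles ISRIB libraries coloured by role, the black bar marks the mean of the ISRIB group and an asterisk a called member. The filled circles lie left of the open circles for 23 members, while those of Erp29, Ero1l, Ppib and Sec61g lie among or to the right of them.

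Taken library by library, the members' median log2 ratio to the vehicle mean was 0.05, -0.07, -0.03 and 0.07 in vehicle 1 to 4. It was -0.21, -0.23, -0.22 and -0.17 in ISRIB 1 to 4. Every ISRIB library therefore lay below every vehicle library, with ISRIB 4 nearest to them. Summed over the 36 members, the level in each ISRIB library lay below the vehicle range, at 8324 ± 373 CPM with vehicle and 7105 ± 179 CPM with ISRIB (SD, n = 4 each). As a share of all counts this was 0.827% and 0.713%.

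Of the 12 chaperones and co-chaperones, 5 fell after ISRIB (Calr, Hsp90b1, Hyou1, Dnajb11, Sdf2l1), the other 7 were not called, and the median was -0.24. Calr (ENSMUSG00000003814, chr8:84841850-84846934), the calcium-binding lectin chaperone calreticulin, was at 661, 559, 585 and 637 CPM in vehicle 1 to 4 and at 456, 484, 450 and 489 CPM in ISRIB 1 to 4. All 4 ISRIB values lie below the lowest vehicle value. Its log2 fold change was -0.38 (SE 0.06, adjusted p 0.00359), the lowest adjusted p of the members. Hsp90b1 (ENSMUSG00000020048, chr10:86690209-86705509), which encodes the ER chaperone GRP94, stood at 710, 642, 706 and 726 CPM with vehicle and at 530, 565, 567 and 559 CPM with ISRIB. The groups do not overlap, and the log2 fold change was -0.33 (SE 0.05, adjusted p 0.00468). Hyou1 (ENSMUSG00000032115, chr9:44379490-44392369), a large chaperone of the HSP70 family that works with BiP, had 242, 183, 224 and 224 CPM with vehicle and 158, 161, 157 and 181 CPM with ISRIB. Vehicle 2 and ISRIB 4 come within a few CPM of each other, and the other libraries are well apart. Its log2 fold change was -0.41 (SE 0.07, adjusted p 0.00952).

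Sdf2l1, a partner of BiP co-chaperone complexes, had the largest fall of the called members, at a low level. It was at 25.1, 19, 19.9 and 23.8 CPM with vehicle and at 10.6, 17.1, 12 and 17.9 CPM with ISRIB. ISRIB 2 and 4 lie close under the vehicle libraries and ISRIB 1 and 3 far below, and the log2 fold change was -0.61 (SE 0.15, adjusted p 0.037). Dnajb11, the ER co-chaperone ERdj3, went from a mean of 87.2 to 72.9 CPM, a log2 fold change of -0.26 (adjusted p 0.0436). Its call was kept in 1 of the 8 fits with a library left out and that of Sdf2l1 in 3.

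Hspa5 (ENSMUSG00000026864, chr2:34771970-34777547) encodes BiP, the main HSP70 of the ER, and was not called. It was at 782, 668, 747 and 797 CPM with vehicle and at 587, 632, 600 and 750 CPM with ISRIB. ISRIB 1, 2 and 3 lie below all vehicle libraries and ISRIB 4 lies above vehicle 2 and 3, so the groups overlap. The log2 fold change was -0.22 (SE 0.07, 95% interval -0.38 to -0.06, adjusted p 0.141), and it was called without ISRIB 4 (adjusted p 0.0325) and without the filter on low counts (0.00636). Creld2 and Manf, secreted or ER-resident genes of the unfolded protein response, also had overlapping groups, with log2 fold changes of -0.32 (adjusted p 0.0964) and -0.21 (adjusted p 0.236); both were called without the filter (0.00201 and 0.0436). The membrane lectin chaperone Canx had -0.18 (adjusted p 0.0867) with no overlap between groups. The nucleotide exchange factor Sil1, and the J-domain co-chaperones Dnajc3 and Dnajc10, had -0.16, -0.12 and -0.06.

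Among the 10 disulfide isomerases and folding enzymes, 3 fell (Pdia6, Pdia3, P4hb), 7 were not called, and the median was -0.12. Pdia6 (ENSMUSG00000020571, chr12:17266545-17284770), a disulfide isomerase of the BiP complex, stood at 502, 448, 469 and 493 CPM with vehicle and at 378, 389, 373 and 389 CPM with ISRIB. The 4 ISRIB values lie close together and well below the lowest vehicle library; the log2 fold change was -0.32 (SE 0.05, adjusted p 0.00386). Pdia3, the isomerase that works with the lectin chaperones on glycoproteins, was at 616, 572, 558 and 629 CPM with vehicle and at 509, 509, 490 and 525 CPM with ISRIB. The groups do not overlap, and its log2 fold change came to -0.22 (SE 0.05, adjusted p 0.0338). P4hb, the founding member of the family and a subunit of collagen prolyl hydroxylase, went from 838 to 736 CPM, a log2 fold change of -0.19 (adjusted p 0.046). Its call was kept in 0 of the 8 fits with a library left out, and that of Pdia3 in 1.

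The 7 uncalled enzymes had log2 fold changes from -0.65 to 0.05. Pdia5 had the lowest estimate of all members, -0.65 (SE 0.17, adjusted p 0.0645), from 7.0 to 4.45 CPM with groups that did not overlap. Pdia4 had -0.15 (adjusted p 0.347). The remaining 5 were nearer to 0: Txndc5 (-0.08), the thioredoxin-like Erp44 (-0.07) and Erp29 (0.03), the disulfide oxidase Ero1l (0.05) and the prolyl isomerase Ppib (-0.02) all had groups that overlapped.

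Genes of protein entry came next along the route. Of the 7 translocon genes, 2 fell, Sec61b and Ssr1, and the median was -0.19. Sec61b, the small beta subunit of the channel, ranged from 44.6 to 50.3 CPM with vehicle and from 37.5 to 41.6 CPM with ISRIB. The groups do not overlap and the log2 fold change was -0.27 (SE 0.07, adjusted p 0.043). Ssr1, a subunit of the translocon-associated protein complex that sits beside the channel, ranged from 258 to 287 CPM with vehicle and from 222 to 253 CPM with ISRIB. The highest ISRIB library comes close to the lowest vehicle one, and the log2 fold change was -0.22 (SE 0.05, adjusted p 0.0487). Each of these calls was kept in 1 of the 8 fits with a library left out, and neither with a replicate block (adjusted p 0.0702 and 0.053). The channel itself, Sec61a1, had -0.20 with groups apart (adjusted p 0.054) and was called under 5 of 7 other settings run on all libraries, DESeq2 among them (0.00697). Ssr2 had -0.19 with groups apart (adjusted p 0.0864). Sec61g, at 2.7 CPM with vehicle, is near the limit of this depth and had an estimate of 0.14 (95% interval -0.34 to 0.62).

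Of the 3 signal peptidase genes, the subunits Spcs2 and Spcs3 fell. Spcs2 was at 198, 183, 196 and 211 CPM with vehicle and at 167, 166, 166 and 162 CPM with ISRIB. The ISRIB values lie close together and all below the vehicle range; the log2 fold change was -0.25 (SE 0.05, adjusted p 0.017). Spcs3 had 91.7, 88.8, 87.3 and 107 CPM against 74.6, 75.4, 79.1 and 77.1 CPM, again without overlap, and its log2 fold change was -0.29 (SE 0.07, adjusted p 0.0263). The call of Spcs2 was kept in 7 of the 8 fits with a library left out and that of Spcs3 in 2. Spcs1 had -0.13 (adjusted p 0.347).

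All 4 oligosaccharyltransferase genes fell, with log2 fold changes between -0.27 and -0.24. Ddost, a subunit of the enzyme's membrane core, was at 243, 220, 229 and 233 CPM with vehicle and at 199, 188, 194 and 196 CPM with ISRIB (log2 fold change -0.25, SE 0.05, adjusted p 0.0146). Rpn1, ribophorin I, had 291, 262, 280 and 284 CPM against 233, 241, 234 and 240 CPM (-0.24, SE 0.05, adjusted p 0.0193). Rpn2, ribophorin II, had 367, 359, 364 and 342 CPM against 319, 277, 311 and 278 CPM (-0.27, SE 0.06, adjusted p 0.0181). In none of the 3 do the groups overlap. Ostc, the subunit that ties the enzyme to the translocon, had 77.7, 75.4, 79 and 86.4 CPM against 65, 65.5, 63.8 and 68.9 CPM (-0.27, SE 0.06, adjusted p 0.0201). Without vehicle 1 none of the 4 was called, with adjusted p from 0.054 for Ostc to 0.0776 for Rpn1.

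Marker genes of AT2 and other cells were read in the same libraries. Of the 12 AT2 markers, 0 were called higher with ISRIB and 1 lower. This was Etv5, at 964 CPM with vehicle and 793 CPM with ISRIB (log2 fold change -0.28, adjusted p 0.00817). The 7 markers of transitional epithelium summed to 359 to 449 CPM with vehicle and 315 to 375 CPM with ISRIB, and 2 of them were called lower. The 11 airway markers summed to 3375 to 3812 CPM with vehicle and 2139 to 3742 CPM with ISRIB, with 1 of the 7 tested called lower. Plasma cells are rich in this machinery. The 11 plasma and B cell markers other than Sdc1, which epithelium also expresses, summed to 21.1 to 23.1 CPM with vehicle and 17.8 to 20.1 CPM with ISRIB, without overlap. Cd79b, at 19.9 and 16.5 CPM, made up most of that sum and was not called (adjusted p 0.112), and of the list 0 of 3 tested genes were called. Igha, Igkc and Iglc2 were at 0 in every library of both groups, and Mzb1 was at 0.0897 to 0.585 CPM with vehicle and 0.164 to 0.509 CPM with ISRIB. Immediate-early and dissociation genes, which respond to cell handling, summed to 461 to 519 CPM with vehicle and 485 to 690 CPM with ISRIB; 3 of the 10 were called higher and 2 lower. The part of these marker differences in the members' fall was not tested.

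The second comparison asks how AT2 cells differed 14 days after bleomycin. Here many of the genes were higher: of the 35 members tested, 19 were called higher and 0 lower, against 11.2% of all genes tested called higher and 9.31% called lower. Sec61g, with 77 counts over the 9 libraries, did not pass the filter and was not tested. Its raw counts were 9, 17, 8 and 10 in the naive libraries and 7, 7, 6, 2 and 11 in the bleomycin libraries. As a share of library totals, every bleomycin library was below every naive one. The log2 fold change was above 0 for 33 of 35 members, with a median of 0.49 (1.41-fold), while the median over all genes tested was 0.0026. The naive and bleomycin libraries did not overlap for 19 members, the same 19 as were called, against 10.4% of all genes tested. At a mean of at least 40 CPM, 16 of 26 members were called higher, against 15.7% of genes at that level. DESeq2 and limma-voom also called 0 members lower, and 0 had an unadjusted p under 0.05 in that direction. With 1 library left out, between 15 (without naive 4) and 21 (without bleomycin 4) members were called higher, and 15 of the 19 were called in every such fit.

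**Figure D2:**
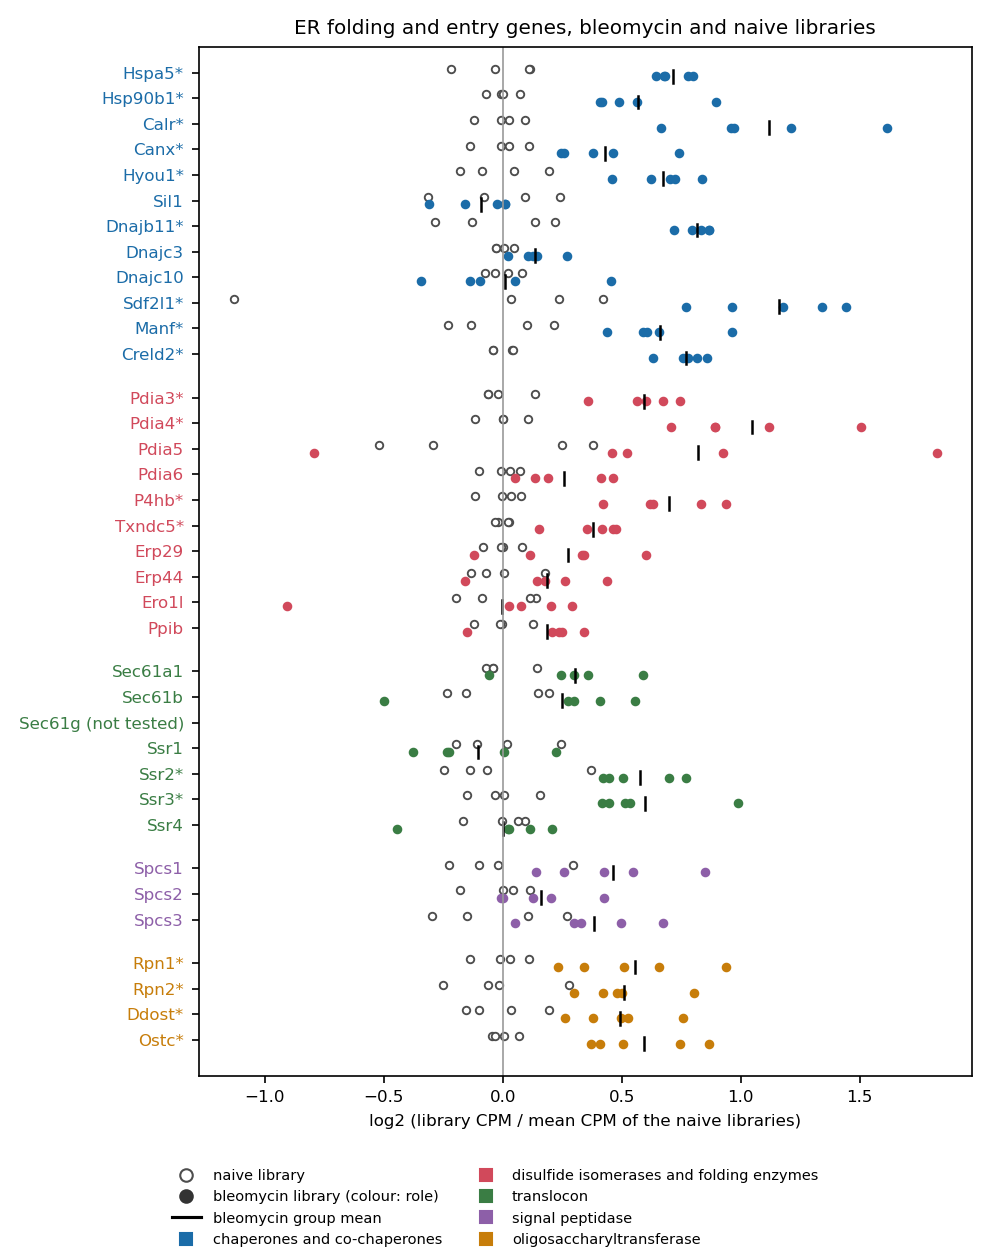
Level of each member in each total-RNA library, as the log2 ratio of the library's CPM to the mean CPM of the 4 naive libraries. Open circles are naive libraries, filled circles bleomycin libraries coloured by role, the black bar marks the mean of the bleomycin group and an asterisk a called member; Sec61g was not tested and has no points. Filled circles lie right of all open circles for 19 members, and Calr, Pdia4 and Sdf2l1 lie farthest right among them.

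The members' median log2 ratio to the naive mean was -0.04, 0.12, 0 and -0.03 in naive 1 to 4. It was 0.34, 0.59, 0.43, 0.44 and 0.46 in bleomycin 1 to 5, so all 5 lay above the naive libraries. Summed over the tested members, the level was 5282 ± 222 CPM (SD, n = 4) in naive and 7832 ± 767 CPM (SD, n = 5) in bleomycin libraries, with no overlap. As a share of all counts this was 0.513% and 0.796%.

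Of the 12 chaperones and co-chaperones, 9 rose after bleomycin, and the median was 0.66. Calr was at 439, 419, 410 and 378 CPM in naive 1 to 4 and at 808, 954, 800, 1260 and 652 CPM in bleomycin 1 to 5. Bleomycin 4 was the highest and bleomycin 5 the lowest, still well above every naive library. The level was 2.17-fold higher (log2 fold change 1.12, SE 0.16, adjusted p 6.77e-05). Hspa5 was at 396, 499, 498 and 450 CPM in naive libraries and at 790, 802, 737, 720 and 738 CPM in bleomycin libraries. The 5 bleomycin values lie close together and above all naive values, a 1.64-fold difference (log2 fold change 0.72, SE 0.11, adjusted p 0.000199). Hsp90b1, the chaperone gene with the highest level per exon length in naive libraries, had 817, 853, 859 and 903 CPM against 1139, 1205, 1269, 1598 and 1145 CPM. Bleomycin 4 again stood highest, and the difference was 1.48-fold (log2 fold change 0.57, SE 0.12, adjusted p 0.00334).

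Dnajb11, Hyou1 and Sdf2l1, which work with BiP, were among the 9. Dnajb11 was at 55.3, 74.1, 78.4 and 61.7 CPM in naive and at 111, 120, 123, 123 and 117 CPM in bleomycin libraries. The bleomycin values vary less than the naive ones, and the log2 fold change was 0.82 (SE 0.12, adjusted p 0.000124). Hyou1 had 130, 143, 158 and 122 CPM against 228, 225, 213, 247 and 190 CPM, without overlap (log2 fold change 0.67, SE 0.12, adjusted p 0.000528). Sdf2l1 had the largest fold change of the called members, at a low level (7.33 ± 2.82 CPM in naive, SD, n = 4, and 16.4 ± 3.01 CPM in bleomycin, SD, n = 5; log2 fold change 1.13, SE 0.28, adjusted p 0.00748).

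Creld2, a disulfide-rich gene of the unfolded protein response, was at 28.2, 26.7, 26.7 and 28.3 CPM in naive and at 48.4, 49.8, 47.1, 46.4 and 42.6 CPM in bleomycin libraries. Both groups are tight and far apart, and the log2 fold change came to 0.77 (SE 0.13, adjusted p 0.000485). Manf, a secreted ER protein that binds BiP, had 42.9, 58.5, 54 and 45.9 CPM against 79.4, 98.2, 76.7, 68.1 and 75.7 CPM. The lowest bleomycin library lies above the highest naive one, and the log2 fold change was 0.66 (SE 0.14, adjusted p 0.00246). Canx rose less, by 0.43 (adjusted p 0.0183), and lost its call without naive 1 (adjusted p 0.0557) and without naive 4 (0.0837). The other 3 co-chaperones were not called: Sil1 (-0.09, 95% interval -0.43 to 0.26), Dnajc3 (0.14, -0.08 to 0.35) and Dnajc10 (0.02, -0.29 to 0.32). Dnajc3 held an ERSE and was not called in either comparison.

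Of the 10 disulfide isomerases and folding enzymes, 4 rose (Pdia4, P4hb, Pdia3, Txndc5), and the median was 0.32. Pdia4 (ENSMUSG00000025823, chr6:47796141-47813430), an isomerase with several thioredoxin domains, had the lowest adjusted p of the members. It was at 157, 169, 145 and 157 CPM in naive and at 291, 341, 291, 445 and 256 CPM in bleomycin libraries. Bleomycin 4 was highest and bleomycin 5 lowest, as for Calr, and the level was 2.06-fold higher (log2 fold change 1.05, SE 0.14, adjusted p 5.67e-05). P4hb had 401, 423, 411 and 370 CPM against 537, 769, 622, 714 and 617 CPM, with no overlap (log2 fold change 0.70, SE 0.12, adjusted p 0.000509). Pdia3 had 338, 387, 338 and 348 CPM against 452, 521, 562, 591 and 536 CPM, with bleomycin 1 nearest to the naive range (log2 fold change 0.59, SE 0.11, adjusted p 0.00113). Txndc5 rose by 0.38 (adjusted p 0.0192). Its call was kept in 5 of the 9 fits with a library left out, and was lost whenever a naive library was left out.

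The 6 others were not called. Pdia6 had 0.26 (95% interval 0.02 to 0.50, adjusted p 0.118), Erp29 0.27, Erp44 0.18, Ppib 0.19 and Ero1l 0.01. Pdia5, at a median of 3.68 CPM in naive and 5.27 CPM in bleomycin libraries, had an estimate of 0.81. Its interval ran from -0.16 to 1.78, so its direction was not resolved. The parts of depth and of the spread between libraries in the width of this interval were not tested.

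Fewer entry genes than chaperones were called. Of the 6 translocon genes tested, Ssr3 and Ssr2 rose, 4 were not called, and the median was 0.28. Ssr3, a subunit of the translocon-associated protein complex, was at 109, 121, 97.9 and 106 CPM in naive and at 148, 215, 157, 145 and 155 CPM in bleomycin libraries. Bleomycin 2 stands apart above the other 4, which still exceed all naive values; the log2 fold change was 0.60 (SE 0.13, adjusted p 0.00331). Ssr2 rose by 0.57 (adjusted p 0.0103) and lost its call without naive 4 (adjusted p 0.0537). The channel genes Sec61a1 (0.30, adjusted p 0.0978) and Sec61b (0.25, adjusted p 0.447) were not called, nor were Ssr1 (-0.11) and Ssr4 (0.01). Of the 3 signal peptidase genes 0 were called by edgeR, DESeq2 or limma-voom, and 2 had an unadjusted p under 0.05 (Spcs1 0.46, adjusted p 0.106, and Spcs3 0.38, adjusted p 0.0861).

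All 4 oligosaccharyltransferase genes rose, by 0.49 to 0.60 on the log2 scale. Rpn1 was at 154, 183, 173 and 168 CPM in naive and at 199, 267, 241, 325 and 215 CPM in bleomycin libraries. Bleomycin 4 stood highest, and bleomycin 1 was the nearest to the naive range; the log2 fold change was 0.55 (SE 0.14, adjusted p 0.00731). Ostc, Rpn2 and Ddost had 0.60 (adjusted p 0.00766), 0.51 (adjusted p 0.00908) and 0.49 (adjusted p 0.0113). Ddost lost its call without naive 4 (adjusted p 0.0565).

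Other markers moved with this rise. The 12 AT2 markers summed to 94255 to 98530 CPM in naive libraries and to 55251, 70845, 107482, 84121 and 100127 CPM in bleomycin 1 to 5, below the naive range in bleomycin 1, 2 and 4, with 2 called higher and 2 lower. The 7 markers of transitional epithelium, the state between AT2 and alveolar type 1 cells seen after injury, summed to 250 to 288 CPM in naive and 605 to 852 CPM in bleomycin libraries, and all 7 were called higher. The 8 alveolar type 1 markers summed to 1064 to 1276 and 1875 to 2235 CPM, with 6 called higher. Fibroblast markers, low throughout, summed to 5.37 to 11.2 CPM in naive and 20.2 to 130 CPM in bleomycin libraries. Of the 10, only 3 passed the filter, and all 3 were called higher. The sum was highest in bleomycin 2 and 20.2 to 55.5 CPM in the other 4. Without bleomycin 2, the number of members called higher was 19 and their median 0.42. Macrophage markers summed to 16.3 to 27.3 and 44.1 to 74.7 CPM. Most of that sum was Cd14, at 10.1 to 16.7 and 38.2 to 64.3 CPM and called higher, while C1qa and Marco were at 0 in all 9 libraries. Plasma and B cell markers without Sdc1 summed to 3.28 to 11.2 and 2.06 to 9.7 CPM, and Sdc1 itself, at 336 to 383 and 447 to 644 CPM, was called higher. Endothelial markers summed to 22.4 to 30.2 CPM in naive and 24.4 to 87.7 CPM in bleomycin libraries, with 2 of the 6 tested called higher and 0 lower. Immediate-early and dissociation genes summed to 626 to 765 CPM in naive and 346 to 477 CPM in bleomycin libraries. Of these 10 genes, 5 were called lower and 1 higher. The part of these differences in the members' rise was not tested.

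**Figure D3:**
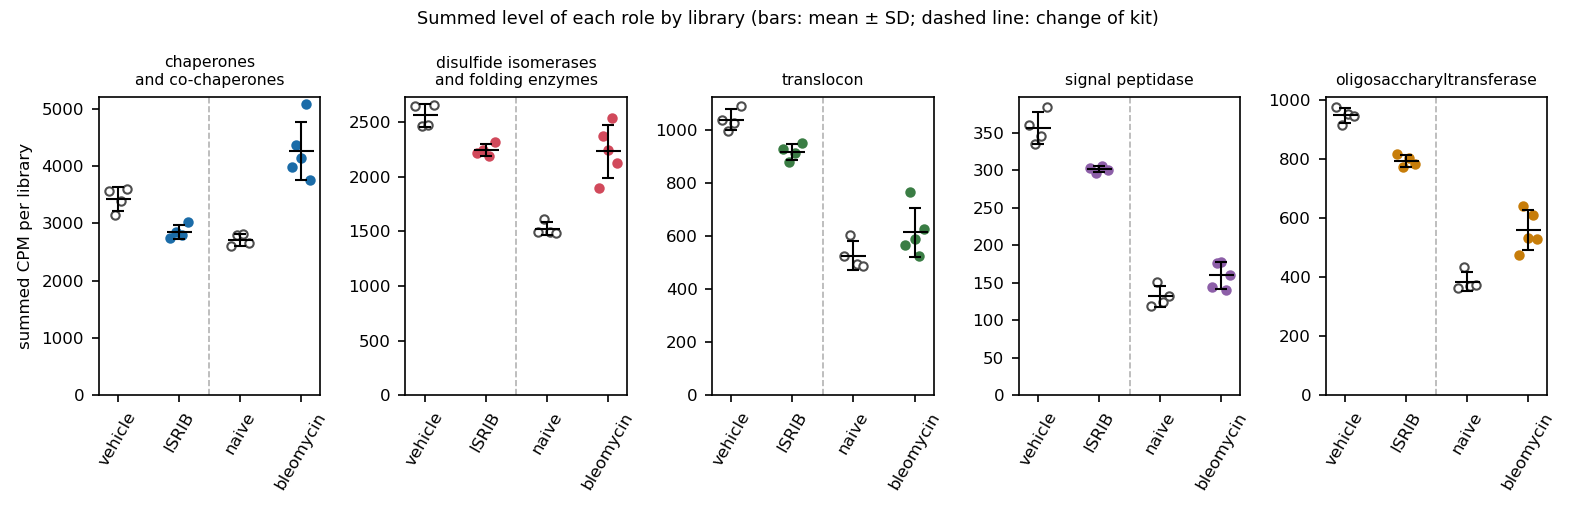
Summed CPM of each role in each library, on axes that start at 0, with group mean and SD as bars; the dashed line separates the poly(A) libraries (left) from the total-RNA libraries (right), whose levels are not comparable. All 5 roles were lower with ISRIB without overlap, and chaperones, isomerases and oligosaccharyltransferase genes were higher after bleomycin without overlap, while translocon and signal peptidase sums overlapped.

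Summing the CPM of each role gives a level per library that the most abundant members dominate. With ISRIB the sums were 0.833 of vehicle for chaperones, 0.877 for isomerases and folding enzymes, 0.884 for the translocon, 0.848 for the signal peptidase and 0.836 for the oligosaccharyltransferase. None of the 5 sums overlapped between groups. After bleomycin the sums were 1.57 times naive for chaperones, 1.47 for isomerases and folding enzymes and 1.45 for the oligosaccharyltransferase, without overlap. The translocon (1.17) and signal peptidase (1.21) sums overlapped between naive and bleomycin libraries. Whether roles differ from each other in their shift was not tested.

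The 2 comparisons share no library, so each member has 2 separate measurements. Of the 35 members tested in both, 11 were called lower after ISRIB and higher after bleomycin, against 0.307% of the 10737 genes tested in both. These 11 are 68.8% of the 16 members called lower after ISRIB and 57.9% of the 19 called higher after bleomycin; over all genes the same shares were 25.2% and 2.75%. They were 5 chaperones (Hsp90b1, Calr, Hyou1, Dnajb11, Sdf2l1), the isomerases Pdia3 and P4hb, and all 4 oligosaccharyltransferase genes. A further 5 members were called after ISRIB and not after bleomycin (Pdia6, Sec61b, Ssr1, Spcs2, Spcs3), 8 after bleomycin and not after ISRIB (Hspa5, Canx, Manf, Creld2, Pdia4, Txndc5, Ssr2, Ssr3) and 11 in neither. The estimate was below 0 after ISRIB and above 0 after bleomycin for 31 of 35 members, and for 2830 of all 10737 genes. Taken alone, 44.4% of members were called lower after ISRIB, and 33 of 36 estimates were below 0. After bleomycin 54.3% of those tested were called higher, and 33 of 35 estimates were above 0. Many shared calls and opposite signs would follow from these shares alone. Whether the members' overlap exceeds that was not tested. No translocon or signal peptidase gene was called in both, and the difference between fold changes in the 2 kits was not tested.

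**Figure D4:**
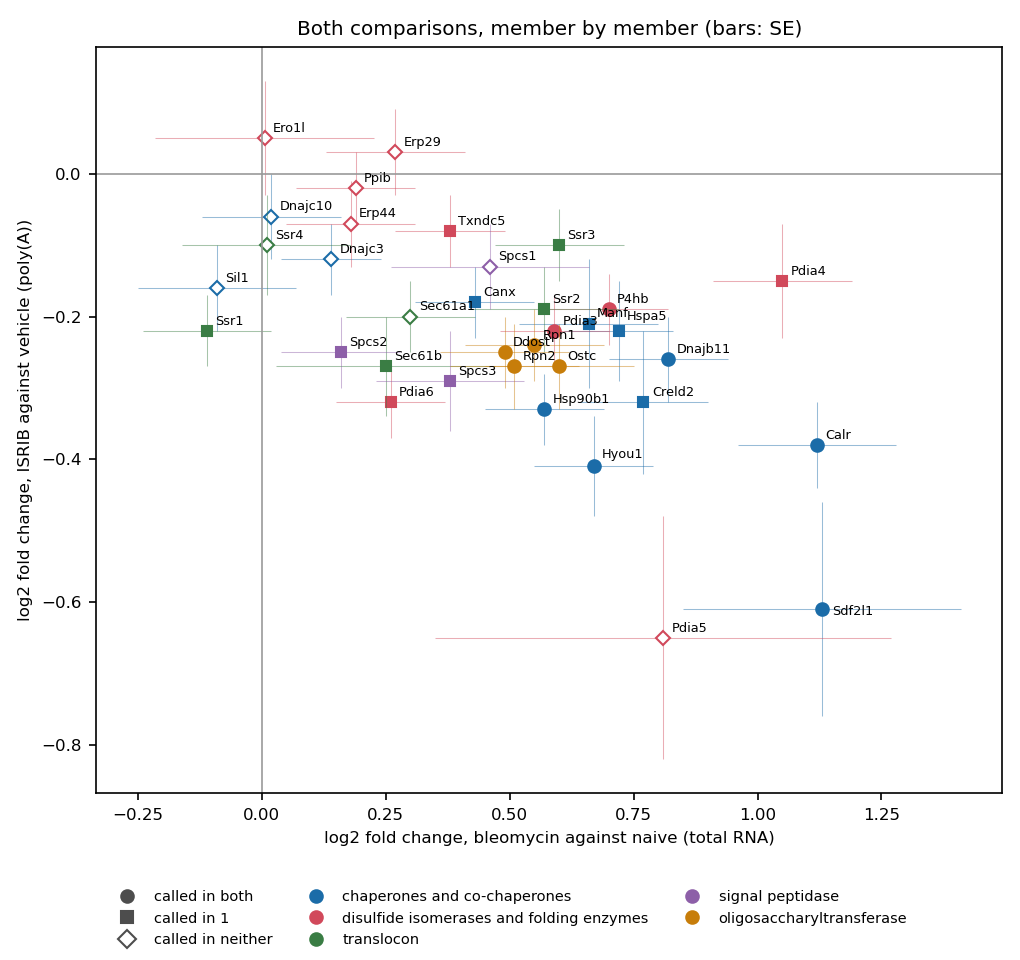
Log2 fold change of each of the 35 members tested in both comparisons, bleomycin against naive (x) and ISRIB against vehicle (y), with standard errors as bars; colour gives the role and shape whether a member was called in both, 1 or neither comparison. Most points lie in the lower right, 31 of 35, with Calr and Sdf2l1 far to the right, and Ero1l, Erp29, Ppib and Dnajc10 near 0 on the vertical axis.

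Ranked by level per length of exon (CPM per kilobase, group means), the same genes led in both sets. With vehicle, P4hb was highest at 293, then Calr at 212, Pdia3 at 189, Hspa5 at 177 and Hsp90b1 at 173, and the lowest were Pdia5 at 2.53 and Sec61g at 1.10. In naive total-RNA libraries Hsp90b1 was highest at 213, then Calr at 143 and P4hb at 140, and Pdia5 was lowest of the tested members at 1.33. Neighbours in this order such as Hspa5 and Hsp90b1 with vehicle differ by less than the spread of Hspa5 between libraries.

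The 8 members with an ERSE or ERSE-II had a median log2 fold change of -0.29 after ISRIB, with 4 of 8 called lower. The 20 members with a promoter entry and neither motif had -0.17, with 9 of 20 called lower. After bleomycin the medians were 0.64 with a motif (6 of 8 called higher) and 0.46 without (9 of 19 tested). Among genes outside the list that hold either motif, the 15 tested after ISRIB had a median of -0.05 with 1 lower and 1 higher, and the 14 tested after bleomycin had -0.10 with 2 lower and 3 higher. With the ERSE alone, the 8 genes outside the list tested after ISRIB had a median of -0.19, with 1 lower and 0 higher. The 7 tested after bleomycin had 0.28, with 0 lower and 2 higher. Genes outside the list with neither motif had a median of 0.00131 after ISRIB (0.901% called lower, 1.09% higher). After bleomycin their median was 0.02 (8.36% called lower, 11.3% higher). Whether genes with and without a motif differ was not tested.

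The rest of the pathway was read from a wider list. It held 70 further genes of folding, glycan trimming, the signal recognition particle, targeting, cleavage, glycosylation and membrane insertion. After ISRIB, 4 of the 66 tested fell (6.06%) and 2 rose (3.03%), against 1.1% of all genes tested in each direction, and their median was -0.03. Those that fell were the oligosaccharyltransferase subunit Magt1 (-0.31, adjusted p 0.0116), the glycoprotein folding sensor Uggt1 (-0.26, 0.0147), the prolyl isomerase Fkbp2 (-0.28, 0.0382) and the translocating chain-associated gene Tram1 (-0.23, 0.0423). The 2 that rose were the BiP co-chaperone Dnajb9 (65.6 to 89.0 CPM, log2 fold change 0.44, adjusted p 0.0372) and the thioredoxin-domain gene Txndc11 (0.34, 0.0279). The vehicle and ISRIB libraries overlapped for Dnajb9, which moved opposite to the related Dnajb11.

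After bleomycin 4 of the 65 wider genes tested rose, which is 6.15% against 11.2% of all genes tested, and their median was 0.16. Uggt1 rose (120 to 207 CPM, log2 fold change 0.78, adjusted p 0.000373), as did Prkcsh, the beta subunit of glucosidase II (0.85, 0.000185), the signal peptidase catalytic subunit Sec11c (0.55, 0.0356) and the cyclophilin Ppic (0.44, 0.0358). The 16 genes of tail-anchored and multi-pass membrane protein insertion gave medians of -0.02 and 0.19, with lowest adjusted p of 0.476 and 0.0597.

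Transcripts of 10 ER stress sensors and factors were read as well. After ISRIB 0 of the 10 were called, with 5 estimates below 0, 5 above and a median of -0.03. Among them the lowest adjusted p after ISRIB was 0.069, for Atf4 (log2 fold change 0.27), the factor whose translation the integrated stress response favours. Ddit3 had 0.37 with groups that did not overlap (5.08 to 6.56 CPM, adjusted p 0.234). Xbp1, the main factor of the IRE1 branch, had -0.19 with groups that did not overlap (173 to 151 CPM, adjusted p 0.0832). After bleomycin 8 of the 10 estimates were below 0, with a median of -0.11, and 1 gene was called. This was Atf6b, a paralog of Atf6, which rose from 19.0 to 31.5 CPM (log2 fold change 0.72, adjusted p 0.00626). Xbp1 was at 91.2 and 87.0 CPM (-0.07, adjusted p 0.785) and Atf6 had -0.14 (adjusted p 0.416). Splicing of Xbp1 and cleavage of ATF6, which set their activity, cannot be read from gene counts.

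Some members overlap exons of genes on the opposite strand in GENCODE M21: Ppib with Snx22 (24.96% of its exonic bases), Erp29 with Naa25 (24.39%), Spcs1 with Glt8d1 (16.3%), Ssr2 with the pseudogene Gm10704 (12.82%) and Hsp90b1 with the pseudogene 1810014B01Rik (10.29%). No source used here gives the strand setting of the counts, so reads of these pairs may not have been told apart.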

How the data were processed

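RNA was sequenced from 17 libraries of sorted AT2 cells. The authors deposited unnormalised read counts by gene, in 2 tables, 1 per kit. The submitters' processing notes name bcl2fastq 2.19.1, FastQC, Trimmomatic 0.36, STAR 2.6.0, HTSeq 0.11.2 and build mm10; the annotation, the strand setting and the handling of reads shared by near-identical gene copies are named in no source used here. Symbols and positions came from GENCODE M21 (GRCm38), where 42546 of 43430 IDs had a symbol.

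Within each table, genes were filtered (filterByExpr, minimum count 10, minimum total 15), scaled by TMM and tested by group with the two-sided quasi-likelihood test of edgeR 4.0.16 (R 4.3.3), with Benjamini-Hochberg adjustment over all genes tested. SE is the unshrunk log2 fold change over the root of F, and 95% intervals use it. CPM are scaled to effective library sizes; marker sums use raw totals. Depth limits low-level genes most. Alternatives were other scalings, no filter, DESeq2 1.42.0, limma-voom (limma 3.58.1), a replicate block, removal of ribosomal-RNA-like, mitochondrial and surfactant genes, and leaving out each library; the procedure was tested on simulated data.

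The members, the other lists and the naming rule were chosen with earlier results of these data known. Library values are printed for up to 12 called members per comparison by lowest p, and for Hspa5 and Hsp90b1; the called genes of the wider lists are named.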

Additional observations from a re-analysis of the deposited data

Results flagged for a closer look

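In 8 of 142 groups of 4 or 5 libraries, the highest or lowest library stood apart from the rest by Dixon's test at the 95% level, which flags about 7.1 of 142 by chance. The value given is the gap to the nearest library over the whole range of the group.

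With ISRIB 4, Hyou1 (181 CPM against 157 to 161 in the others, 0.839), Manf (87.6 against 73.5 to 74.5, 0.932) and Sec61a1 (274 against 255 to 257, 0.888) were high. Spcs1 was low in ISRIB 2 (55.3 against 61.1 to 61.5, 0.936), and Ssr4 was high in vehicle 4 (57.0 against 51.3 to 52.2, 0.842). In the total-RNA set, Hsp90b1 was high in bleomycin 4 (1598 against 1139 to 1269, 0.717), Ssr3 in bleomycin 2 (215 against 145 to 157, 0.834) and Sec61a1 in naive 2 (124 against 107 to 109, 0.863).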

How the results depend on the processing

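In the ISRIB comparison 16 members were called lower under the main settings and under RLE scaling, 17 under upper-quartile scaling, limma-voom and the removal of ribosomal-RNA-like, mitochondrial and surfactant genes, 20 with DESeq2 and 21 without the filter. Over all genes, the calls of 132 lower and 133 higher became 327 and 321 without the filter and 204 and 204 with DESeq2; the cause was not tested. With 1 library left out, 4 to 14 members and 47 to 123 of all genes were called lower, 39 to 146 of all genes higher, and the members' median was -0.24 to -0.19. These fits have fewer libraries. In the bleomycin comparison 19 members were called higher under every setting run on all 9 libraries. With 1 left out, 15 to 21 were called higher, with medians of 0.42 to 0.57, and 680 to 1223 of all genes were called lower and 874 to 1361 higher (680 without naive 4).

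No label says that a replicate number pairs samples. Deviations of same-numbered libraries correlated at -0.109 to 0.0849 (ISRIB) and -0.0393 to 0.0474 (bleomycin). In the 2 sets, 2 of 4 and 1 of 4 numbers correlated best with their own. With 4 pairs per set, these values cannot show whether the numbers mark a pairing. With the replicate block, 12 members were called lower after ISRIB (Dnajb11 0.052, P4hb 0.071, Sec61b 0.0702 and Ssr1 0.053 in adjusted p) and 18 higher after bleomycin (Txndc5 0.0649); the same 8 libraries without the block, a fit added after seeing the data, gave 19.

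Some uncalled members near 0 changed sign, and no called member did. After ISRIB, with 1 library left out, Erp29 ran from -0.0036 to 0.07, Ppib from -0.04 to 0.01, Ero1l from -0.04 to 0.10 and Sec61g from -0.05 to 0.23. After bleomycin, Dnajc10 ran from -0.12 to 0.10, Ero1l from -0.07 to 0.16 and Ssr4 from -0.04 to 0.10. Ero1l was -0.01 with upper-quartile scaling, -0.0014 with limma-voom, -0.11 with the block and -0.07 in the same libraries without it, and Ssr4 was -0.01 with upper-quartile scaling. At 3295257 to 6333166 counts, the interval of Pdia5 after bleomycin spanned both directions, and the cause of its width was not tested. Sec61g was too low to be tested in that comparison, and its few counts were a smaller share of every bleomycin library than of any naive one.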
